A study of Mus musculus with 16 samples.

Results

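The peaks described here carried trimethylation of histone H3 at lysine 4 (H3K4me3) at a distance from 2 other histone marks. They were chosen by their position: H3K4me3 peaks of one Dicer-intact library, WT replicate 2, that had no H3K36me3 peak and no H3K27me3 peak within 10 kb in any of the 8 lists of those marks. Of the 17755 H3K4me3 peaks of that library on chromosomes 1 to 19, 4923 met this rule (27.7%, 95% Wilson interval 27.1% to 28.4%), and the other 12832 peaks served for comparison. Of the other peaks, 8355 had only H3K36me3 within 10 kb, 2718 had only H3K27me3 and 1759 had both. The choice used the positions of all 3 marks, so the number of far peaks and their distances to the other marks are a description and not a result.

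H3K4me3 is laid down at promoters by the SET1 and MLL methyltransferases, is densest at CpG islands and active genes, and is found in weaker form at some distal regulatory elements. H3K36me3 is written by SETD2 as RNA polymerase II elongates, and so marks the bodies of transcribed genes. H3K27me3 is written by Polycomb repressive complex 2 over silent developmental genes. In mesenchymal stem cells (MSCs), the stromal progenitors of bone, fat and cartilage, H3K4me3 alone, with H3K36me3 downstream, or with H3K27me3 is commonly used to sort promoters into states.

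The libraries came from immortalized monoclonal lines of murine MSCs of the C57BL/6 strain. KO cells were Dicer -/- and lacked the ribonuclease that releases mature microRNAs, and WT cells were Dicer f/f, with both alleles floxed but intact. Each genotype had 2 libraries per mark, and the labels did not say whether these came from separate lines or cultures, so spreads may be technical and may reflect single clones. The labels did not state how Dicer was deleted or how the lines were immortalized. Over all chromosomes, the H3K4me3 lists held 16737 and 23851 peaks in KO replicates 1 and 2, and 12744 and 18322 peaks in WT replicates 1 and 2. WT replicate 1 was thus the shortest list and KO replicate 2 the longest, and read depth was unknown. The whole lists of the other marks ran from 706 peaks for H3K27me3 in KO replicate 1 to 38683 for H3K36me3 in WT replicate 1. Being far from a mark thus means that no listed peak lay nearby. No genome sequence or gene annotation of the mm9 build was used, so peaks are given by mm9 position, without gene names or bases.

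The far peaks were narrow and mostly weak, with a minority at the score on which the strongest peaks of the list pile up. Their median width was 1443 bp, with a middle range of 1045 to 2099 bp and extremes of 364 and 13010 bp. The other peaks had a median of 2470 bp and a middle range of 1634 to 3355 bp. Peaks under 1 kb made up 21.3% of the far peaks and 7.45% of the others, and peaks of 5 kb or more numbered 50 far peaks (1.02%) and 758 others (5.91%). The deposited score of a peak, taken here as a measure of strength within a list, starts at 80 and stands at 3100 for many peaks. It had a median of 660.38 in far peaks and 3100 in the others. Peaks overlapping H3K27me3 and not H3K36me3 lay in between, with a median score of 1439.99 and a median width of 1673 bp. Scores of 3100 or more were held by 1438 far peaks (29.2%) and by 8569 other peaks (66.8%).

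Width and score moved together among the far peaks and split them into unlike groups. The 1438 far peaks at a score of 3100 or more had a median width of 2536 bp, and the 3485 weaker ones had a median of 1188 bp. The commonest combinations were 1 to 2 kb with a score from 500 to below 3100 (1047 peaks), 1 to 2 kb with a score from 160 to below 500 (926), and under 1 kb with a score under 160 (713). No far peak under 1 kb reached 3100, and none of 2 kb or more had a score below 160.

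**Figure D1:**
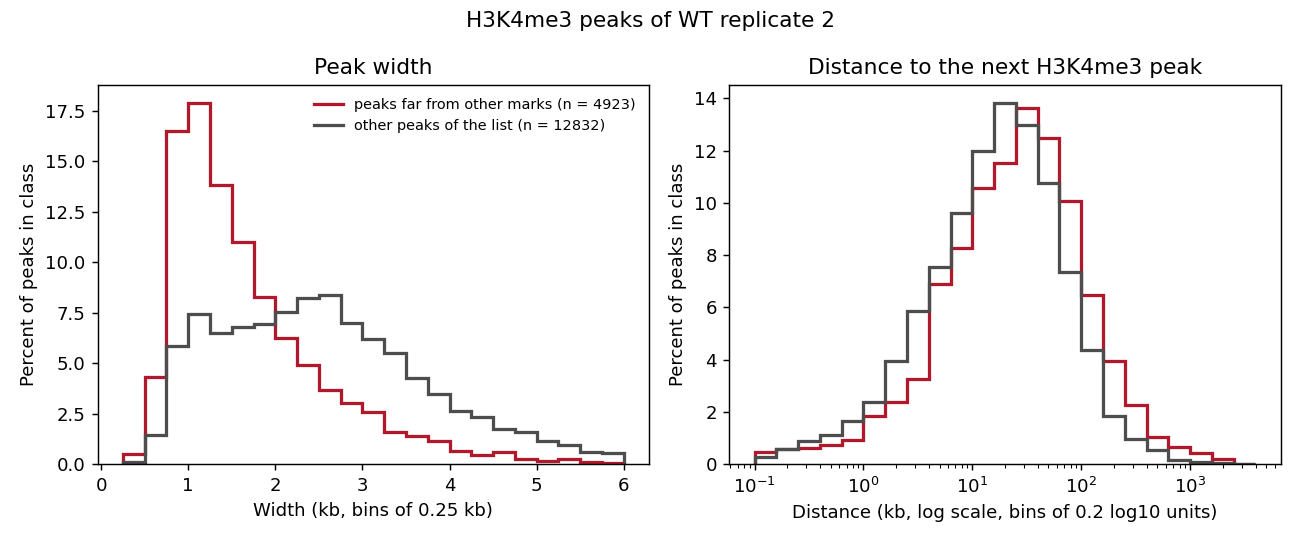
Left, widths of H3K4me3 peaks of WT replicate 2 in kb, and right, distances to the next H3K4me3 peak of the same list in kb on a log axis, each as the percent of the 4923 peaks far from other marks (red) or of the 12832 other peaks (grey). The far peaks crowd near 1 kb and lie farther apart. Beyond the axes lie 0.386% of far and 2.64% of other peaks for width, and 0.711% and 1.15% for distance.

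The widest far peak, chr11:120090300-120103309, spanned 13010 bp in WT replicate 2 and was covered by H3K4me3 peaks over 9693 bp in KO replicate 1, 12246 bp in KO replicate 2 and 9820 bp in WT replicate 1. It lay 25.9 kb from the nearest peak of either other mark. The next in width were chr18:83078340-83087852 (9513 bp), chr18:55144287-55152942 (8656 bp), chr13:23621243-23629755 (8513 bp) and chr4:139129598-139137871 (8274 bp). All 5 had a peak in every H3K4me3 list, and each was covered over at least 5150 bp in each of the 3 other libraries. A difference peak, from the deposited lists taken as contrasting the genotypes, met the chr11 region alone, and it was WT-higher in replicate 1.

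Distances to the other marks ranged widely above the 10 kb that the rule set. The nearest peak of either mark was a median of 28.6 kb away, with a middle range of 16.7 to 62.4 kb. H3K36me3 was the nearer mark for 3143 far peaks (63.8%) and H3K27me3 for 1780 (36.2%), and their median distances were 42.6 and 91.8 kb. Just inside the limit, the 228 peaks 10 to 11 kb from another mark had a median width of 1722.5 bp, and 42.1% of them scored 3100 or more. Just outside it, the 243 peaks 9 to 10 kb away had a median width of 1759 bp and 44.0% at that score. Peaks on either side of the limit were thus alike in width.

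Remoter peaks were narrower and weaker. From 10 to 20 kb away, 1670 far peaks had a median width of 1636 bp, and 40.0% of them scored 3100 or more. From 50 to 100 kb away, 755 peaks had a median of 1336 bp and 22.8% at that score. Beyond 200 kb the 334 peaks had a median of 1189 bp and 14.1% at that score.

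The most remote far peak, chr1:113759987-113762214, went against this trend. It lay 5023.46 kb from the nearest peak of another mark and 2299.47 kb from the next H3K4me3 peak, yet scored 3100. It spanned 2228 bp, all of it covered in KO replicate 2, with 1758 bp covered in KO replicate 1 and 1321 bp in WT replicate 1. Its neighbour across that gap, chr1:116061683-116062392, was a 710 bp peak with a score of 135.42 and a KO-higher difference peak in both replicates. The others of the 5 most remote were adjacent peaks at chr3:45179584-45180792 and chr3:45181544-45183158, with no peak in WT replicate 1, and chr14:109064005-109064729. The chr14 peak, of 725 bp and a score of 80.66, also had the longest distance to another H3K4me3 peak, 2765.3 kb. The remaining 2 of the 5 most isolated were chr12:97083612-97084420 and chr15:15019669-15020448, with scores of 133.01 and 117.32, and neither had a peak in WT replicate 1.

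Far peaks stood somewhat farther apart than the other H3K4me3 peaks pooled, but not than those overlapping H3K27me3, and tended to follow one another along the chromosome. The next H3K4me3 peak of the list was a median of 26.1 kb from a far peak and 17.8 kb from one of the others, but 29.3 kb from a peak overlapping H3K27me3 and 15.2 kb from one overlapping H3K36me3. Distances above 100 kb occurred for 738 far peaks (15.0%) and 1034 others (8.06%), and distances under 2 kb for 7.05% and 10.0%. Of the H3K27me3-overlapping peaks, 16.9% lay above 100 kb and 6.43% under 2 kb, so such spacing was seen in both classes. The nearest H3K4me3 neighbour was itself a far peak for 53.4% of far peaks and for 16.9% of the others. Neighbours share their distances to the other marks, so this follows in part from the rule. Of the far peaks, 1429 (29.0%) had a peak of the other kind on both sides, or the end of the chromosome, and the 11 longest runs, of 10 or more far peaks in a row, held 134 of them.

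The densest group of far peaks lay on chromosome 13. A run of 23 far peaks without any other H3K4me3 peak between them spanned chr13:23526672-23679354, and 18 of these followed at under 10 kb from each other over chr13:23580067-23679354. The median width in the run was 2189 bp and 12 of the 23 scored 3100 or more. KO replicate 1 listed 22 of them, KO replicate 2 all 23 and WT replicate 1 listed 16. A second run of 18 far peaks was found at chr13:21791702-22028735, with 15, 18 and 13 of them listed in KO replicate 1, KO replicate 2 and WT replicate 1. Runs of 11 came next, and the first of these in genome order, at chr3:51439804-51822726, was made of weaker peaks with a median score of 255.49.

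Chromosomes differed in their share of far peaks, and the same ones stood high in each of the 4 H3K4me3 lists. When the rule was applied to each list, chromosome 12 had 43.6% and 48.8% far peaks in KO and 33.3% and 40.5% in WT. Chromosome 13 had 41.4% and 49.9% in KO and 28.4% and 40.6% in WT. Chromosome 18 came next in all 4 lists, behind these chromosomes, with 45.1% in KO replicate 2 and 35.6% in WT replicate 2. The lowest values were 18.7% and 25.6% on chromosome 19 in KO, and 11.2% on chromosome 8 and 20.5% on chromosome 19 in WT replicates 1 and 2. The 4 lists were set against the same lists of other marks, so their shared order is not independent evidence.

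**Figure D2:**
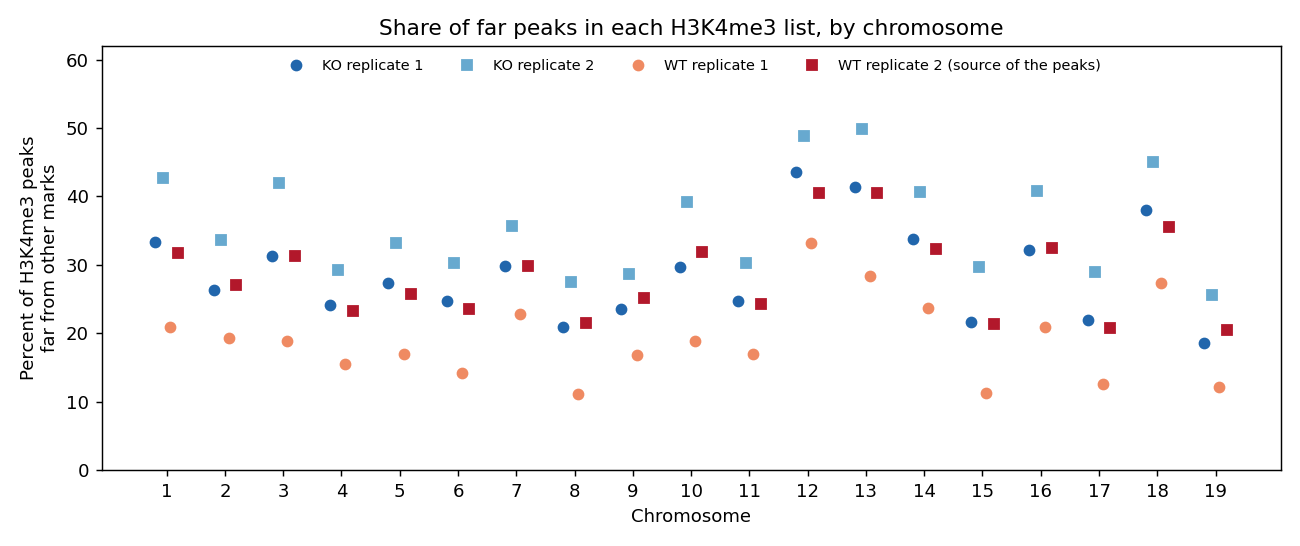
Percent of H3K4me3 peaks more than 10 kb from H3K36me3 and H3K27me3 peaks on each chromosome, in KO replicates 1 (dark blue circles) and 2 (light blue squares) and WT replicates 1 (orange circles) and 2 (red squares). Chromosomes 12, 13 and 18 stand highest in every list, and WT replicate 1 is lowest throughout.

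Far peaks made up a higher share of both KO lists than of either WT list, in a design too small for a test to pass. They numbered 4580 of 16267 peaks (28.2%) in KO replicate 1 and 8197 of 23215 (35.3%) in KO replicate 2, against 2283 of 12314 (18.5%) in WT replicate 1 and 4923 of 17755 (27.7%) in WT replicate 2. The means were 31.7% ± 5.06 in KO and 23.1% ± 6.50 in WT (SD, n = 2 each), a difference of 8.60 percentage points. The genotypes did not overlap, but KO replicate 1 and WT replicate 2 nearly met, and the exact two-sided permutation p = 0.33 is the smallest that 2 against 2 libraries allow. Single libraries weighed heavily: the difference was 5.02 without KO replicate 2, 4.0 without WT replicate 1 and 13.2 without WT replicate 2.

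Weaker peaks had the larger genotype difference in this share, in a split chosen after the values were seen. Below a score of 3100 the share was 41.1% and 51.2% in KO against 27.5% and 45.0% in WT. At 3100 or more it was 9.98% and 14.8% in KO against 6.56% and 14.4% in WT. WT replicate 2 exceeded KO replicate 1 in both subsets, so the genotypes overlapped there (exact permutation p = 0.667 each). Short lists held fewer far peaks, and the part of list length in the difference between genotypes was not tested.

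Most far peaks recurred in other H3K4me3 libraries, least often in the other WT library. KO replicate 1 listed 3197 of the 4923 (64.9%, Wilson interval 63.6% to 66.3%), KO replicate 2 listed 4450 (90.4%, 89.5% to 91.2%) and WT replicate 1 listed 2022 (41.1%, 39.7% to 42.5%). Over all 17755 peaks of WT replicate 2 the shares were 75.8%, 93.5% and 63.9%. The order of the libraries is that of their list lengths, and the WT value rests on 1 library. The intervals cover counting error only. KO replicate 2 peaks covered 89.3% of the far peaks' length, KO replicate 1 peaks 60.7% and WT replicate 1 peaks 38.5%.

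Listing patterns split the far peaks into a strong shared class and weak classes. All 4 libraries listed 1897 far peaks (38.5%), with a median width of 2262 bp and a score of 3100 or more in 72.6% of them. Both KO libraries but not WT replicate 1 listed 1293 (26.3%), with a median width of 1214 bp and a median score of 334.75. KO replicate 2 alone shared 1154 (23.4%), with medians of 1096.5 bp and 200.635. No other library listed 447 (9.08%), with medians of 988 bp and 156.23. The reverse pattern, shared with WT replicate 1 and neither KO library, held 19 (0.386%). Among the other peaks of the list, 69.6% were in all 4 libraries, 10.3% in both KO libraries but not WT replicate 1, and 4.98% in no other. The reverse pattern held 0.366% of these other peaks, a share near that of the far peaks.

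**Figure D3:**
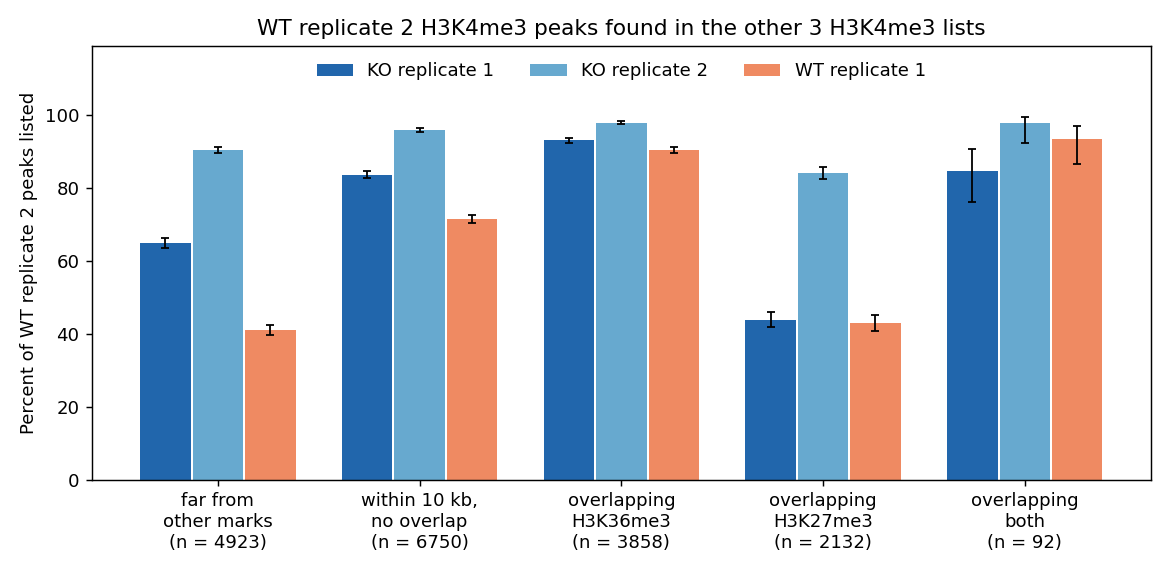
Percent of WT replicate 2 H3K4me3 peaks that overlap a peak of KO replicate 1 (dark blue), KO replicate 2 (light blue) or WT replicate 1 (orange), by the position of the peak relative to the other marks. Bars start at 0 and lines are 95% Wilson intervals of the count. Far peaks are listed less than peaks overlapping H3K36me3 in all 3 libraries, and more than peaks overlapping H3K27me3 in the KO libraries.

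Far peaks were listed less often than peaks overlapping H3K36me3, in each of the 3 libraries. Of the 3858 peaks overlapping H3K36me3 and not H3K27me3, 93.1%, 98.0% and 90.5% were listed in KO replicate 1, KO replicate 2 and WT replicate 1. Of the 2132 peaks overlapping H3K27me3 and not H3K36me3, 43.9%, 84.2% and 43.0% were listed, and their median width was 1673 bp. The 6750 peaks within 10 kb of another mark but not overlapping it were listed in 83.7%, 96.0% and 71.5% of cases. Far peaks and H3K27me3-overlapping peaks were thus close in WT replicate 1, but the far peaks had the higher values in both KO libraries, a difference that was not tested. Across the 3 libraries the far peaks were listed less often than all other peaks, with a mean difference of -16.9 percentage points and the same sign in each (exact two-sided sign permutation p = 0.25, the smallest that 3 libraries allow). Without WT replicate 1 this mean was -9.60.

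Among peaks of like score below 3100, far peaks had the higher values in the KO libraries. Among peaks with a score from 500 to below 3100, 73.2% of far peaks and 60.4% of other peaks were listed in KO replicate 1, and 42.8% and 41.9% in WT replicate 1. From 160 to below 500 the KO replicate 1 values were 47.1% and 40.0%, and the WT replicate 1 values 4.58% and 4.36%. At 3100 or more, far and other peaks alike were listed in 96.8% of cases in KO replicate 1 and in 98.4% and 98.6% in WT replicate 1. With the other peaks weighted to the far peaks' score classes, far peaks were listed more often by 5.91 percentage points in KO replicate 1, 2.58 in KO replicate 2 and 0.137 in WT replicate 1. The mean was 2.87 (exact sign permutation p = 0.25). Weighted to width quartiles instead, the differences were 4.38 and 2.27 in the KO libraries and -2.72 in WT replicate 1 (mean 1.31, exact permutation p = 0.75). The lower overall listing of far peaks was therefore reversed in sign under these weightings, and neither direction could pass a test with 3 libraries.

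**Figure D4:**
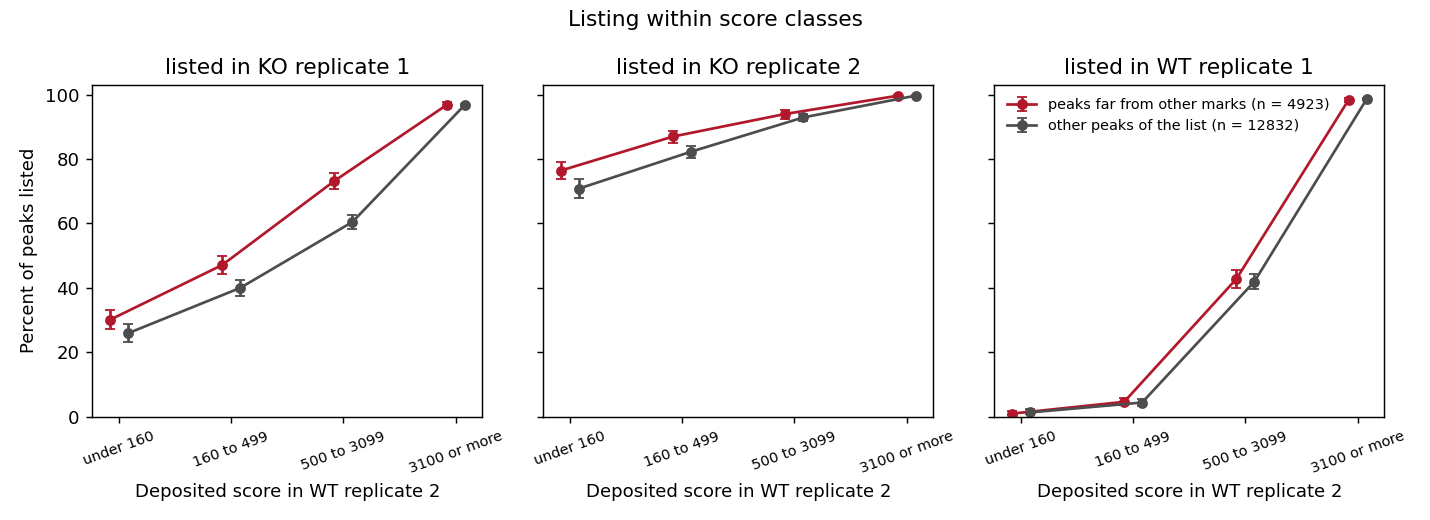
Percent of WT replicate 2 H3K4me3 peaks listed in each of the other 3 H3K4me3 libraries, by the peak's deposited score, for peaks far from other marks (red) and the other peaks (grey), with 95% Wilson intervals. Red lies above grey in both KO libraries below a score of 3100, and the lines run together in WT replicate 1.

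Where far peaks were listed elsewhere, their widths followed the library. Among the 1897 far peaks found in all 4 libraries, the median width was 1858 bp in KO replicate 1 and 2393 bp in KO replicate 2, against 1485 bp in the first WT replicate and 2262 bp in the second. Relative to WT replicate 2, the median log2 width ratio was -0.28 in KO replicate 1, 0.06 in KO replicate 2 and -0.58 in WT replicate 1. For the 8933 other peaks found in all 4 libraries these ratios were -0.32, 0.03 and -0.46. Among far peaks the larger ratio was thus the one between the WT replicates, and the KO libraries lay closer to WT replicate 2.

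Difference peaks met far peaks mainly on the KO side in replicate 1. Each H3K4me3 library also had a difference list, taken as enrichment over the same-numbered library of the opposite genotype. Over all chromosomes, KO replicates 1 and 2 had 5687 and 6594 difference peaks, and WT replicates 1 and 2 had 1867 and 1334. KO-higher and WT-higher shares thus come from lists of unequal length, and the part of that length was not tested. KO-higher peaks met 1360 far peaks in replicate 1 (27.6%) and 672 in replicate 2 (13.7%), beside a background of 15.7% and 7.31% over all 17755 peaks. WT-higher peaks met 280 (5.69%) and 407 (8.27%), beside 9.06% and 6.84%. Among the 1713 peaks 5 to 10 kb from another mark, the KO-higher values were 20.5% and 8.58%, also above background. For far peaks at 10 to 20 kb they were 24.7% and 11.3%. In the runs named above, KO-higher peaks of replicates 1 and 2 met 8 and 4 of the 23 and 3 and 0 of the 18 on chromosome 13. They met 6 and 5 of the 11 on chromosome 3. Against the backgrounds of 15.7% and 7.31%, the run of 18 had 3 and 0 calls, a share near or below background. The far peaks were drawn from the WT replicate 2 list, so replicate 2 calls are tied to the choice of peaks, while replicate 1 calls come from other libraries. WT replicate 1, the shortest list, listed 270 (19.9%) of the 1360 far peaks that were KO-higher in replicate 1. The part of that library's few peaks in these calls was not tested.

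Calls that recurred in both replicates had the same lean. KO-higher in both were 442 far peaks (8.98%, background 4.74%) and WT-higher in both were 57 (1.16%, background 1.45%). Calls of opposite sign in the 2 replicates were few, with 9 far peaks KO-higher in replicate 1 but WT-higher in replicate 2, and 6 the other way round. Over all 17755 peaks these classes held 17 and 17, and the 12832 other peaks held 8 and 11. Such calls were thus not rarer among far peaks than among the others. The counts moved with strength: with difference peaks limited to scores of at least 160, these classes numbered 215 (4.37%, background 2.29%) and 29 (0.589%, background 0.879%). With scores of at least 160 in every list the KO-higher class numbered 144 (2.96%, background 1.63%) and the WT-higher class 42 (0.864%, background 0.984%). The mean excess of far over other peaks in KO-higher calls per replicate was 7.30 and 6.24 percentage points under these limits, and 12.65 without them. With at least 50% of the peak covered, the KO-higher class numbered 437 (8.88%, background 4.64%) and the WT-higher class 35 (0.711%, background 0.89%). The WT-higher count was 88 of 5628 (1.56%, background 1.45%) when the H3K27me3 list of WT replicate 2 was left out of the rule, since peaks near its H3K27me3 then counted as far.

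Far peaks exceeded the other peaks in KO-higher calls by 16.5 percentage points in replicate 1 and 8.77 in replicate 2. With the other peaks weighted to the far peaks' width quartiles and score classes together, the excess was 7.60 and 2.78 (exact sign permutation p = 0.5, the smallest that 2 replicates allow). It was therefore smaller, in both replicates, against peaks of like width and score. For WT-higher calls, far minus other peaks was -4.67 percentage points in replicate 1 and 1.97 in replicate 2, and after this weighting -0.118 and -2.18. At a score of 3100 or more, 99 of 1438 far peaks (6.88%) and 250 of 8569 others (2.92%) were KO-higher in replicate 1. In replicate 2 only 9 (0.626%) and 19 (0.222%) were. At that score no far peak and 8 others (0.0934%) were KO-higher in both replicates, so such calls were rare in either class.

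**Figure D5:**
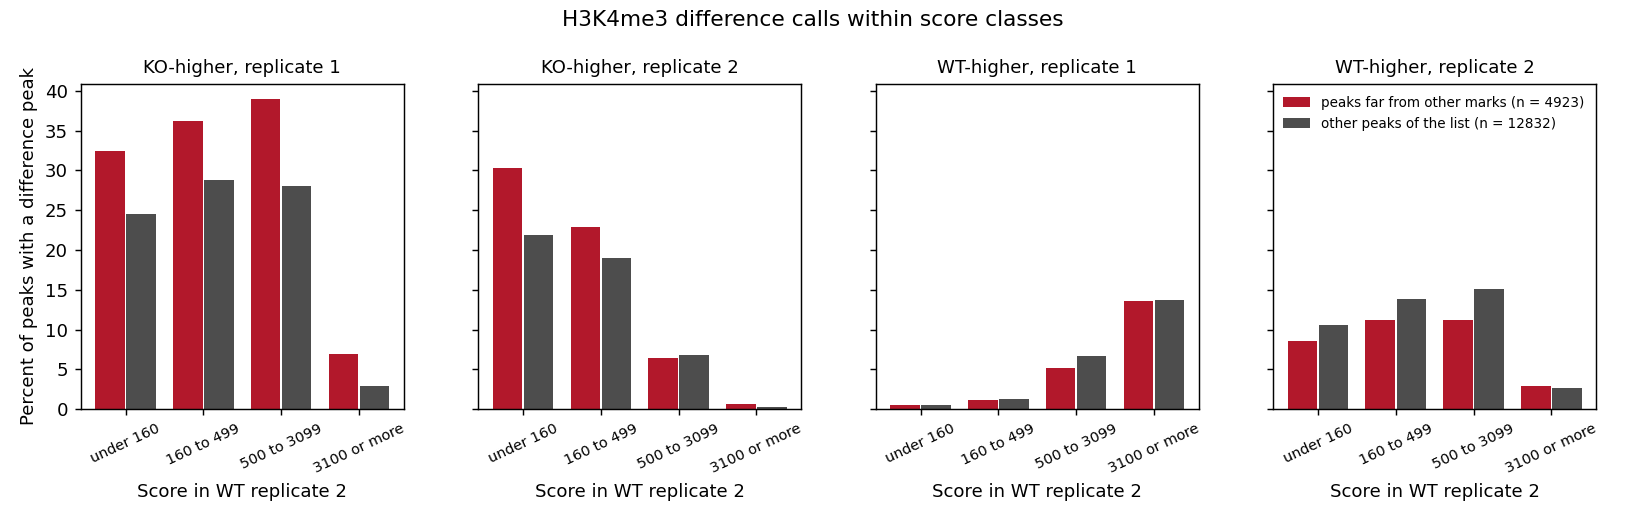
Percent of WT replicate 2 H3K4me3 peaks that meet a KO-higher difference peak (left pair of panels) or a WT-higher one (right pair) in each replicate, by deposited score, for peaks far from other marks (red) and the other peaks (grey). In replicate 1 KO-higher calls reach 39.0% of far and 28.0% of other peaks at scores from 500 to below 3100. WT-higher calls in replicate 1 are commonest at 3100 or more, at 13.6% and 13.8%.

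The 442 far peaks that were KO-higher in both replicates are described here by values that the calls themselves draw on, since the calls compare KO with WT libraries, WT replicate 2 among them. Their median width was 1675.5 bp in KO replicate 2 and 1302 bp in the 409 listed in KO replicate 1, against 1064 bp in WT replicate 2. KO replicate 2 listed all 442, 436 of them over a greater width than in WT replicate 2, which largely restates the call. Of that library's difference peaks, 90.5% had the coordinates of a peak of its own list against extract. WT replicate 1 listed 36 (8.14%). Of the 442, 378 (85.5%) had a WT replicate 2 score under 500.

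The 5 ranked highest by their difference peaks were chr3:108684684-108685674, chr3:103656853-103658077, chr1:16218454-16219739, chr6:134552248-134553081 and chr15:63837121-63838085. None had a peak in WT replicate 1. The first spanned 991 bp in WT replicate 2, and the peaks that met it measured 2366 and 3047 bp in KO replicates 1 and 2. The peaks at the other 4 measured 1207 to 1943 bp in KO replicate 1 and 1891 to 2495 bp in KO replicate 2, against 834 to 1286 bp in WT replicate 2.

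The 57 far peaks that were WT-higher in both replicates are likewise described by values tied to their calls. Their median width in WT replicate 2 was 1833 bp and their median score 2251.63, and they lay a median of 67.6 kb from the next H3K4me3 peak, against 20.3 kb for the 442 KO-higher ones. KO replicate 1 listed 7 of them, KO replicate 2 listed 34, WT replicate 1 listed 51, and neither KO library listed 23 of them. Their score and their listing in WT replicate 1 follow in large part from being called there. Where KO replicate 2 listed them, their peaks had a median width of 1286 bp there, against 1946.5 bp in the WT list of the same number.

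Ranked first among them, chr4:17779715-17782397 had no peak in KO replicates 1 or 2, while WT replicate 1 covered 2518 bp of it and WT replicate 2 its whole 2683 bp. It lay 1146.2 kb from the next H3K4me3 peak. KO peaks were likewise absent at chr11:31268017-31270708, where WT replicates 1 and 2 covered 2133 and 2692 bp. Both loci were thus listed in WT alone. At chr15:22965291-22967089 KO replicate 2 covered 752 bp and KO replicate 1 none, against 1462 and 1799 bp for WT. At chr7:3331552-3334245 KO libraries covered 691 and 1886 bp, against 1708 and 2694 bp for WT. At chr7:95425727-95427722 KO replicate 2 covered 779 bp and KO replicate 1 none, against 998 and 1996 bp for WT. At chr7:3331552-3334245 KO replicate 2 thus exceeded WT replicate 1. These loci were picked for their WT-higher calls, and WT replicate 2 covers every far peak in full, so their lower KO values restate the choice.

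Few far peaks were absent from both KO lists. This held for 466 far peaks (9.47%) and 686 other peaks (5.35%), and 447 of the 466 were also missing from WT replicate 1. Only 5 of the 466 scored 3100 or more. Of these, the chr4 and chr11 loci above, chr10:79239505-79241844 and chr14:20900992-20903172 had a peak in WT replicate 1 and were WT-higher in both replicates. WT replicate 1 covered 1079 bp of the chr10 locus and 1170 bp of the chr14 locus, which spanned 2340 and 2181 bp. At chr6:92655136-92656987 the 1852 bp peak was in WT replicate 2 alone and was WT-higher in replicate 2 alone.

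With distance from the other marks, listing became rarer and WT-higher calls of replicate 2 commoner. Listing in KO replicate 1 was 73.4% at 10 to 20 kb, 58.5% at 50 to 100 kb and 43.4% beyond 200 kb. In WT replicate 1 it was 51.7%, 33.6% and 28.7%. WT-higher peaks of replicate 2 met 5.63% of far peaks at 10 to 20 kb, 9.54% at 50 to 100 kb and 22.8% beyond 200 kb. In these bins 12 (0.719%), 8 (1.06%) and 17 (5.09%) were WT-higher in both replicates, beside a background of 1.45% over all 17755 peaks. In replicate 1 the WT-higher values were 6.23%, 6.75% and 9.28%. They did not rise steadily, with 3.97% at 20 to 50 kb and 5.84% at 100 to 200 kb. KO-higher peaks of replicate 1 met 24.7%, 28.6% and 18.9%, and were commonest at 20 to 50 kb (31.5%). Those of replicate 2 met 11.3%, 15.0% and 14.1%, and 15.7% at 20 to 50 kb. Width and score declined over the same distances, as given above, and their part in this was not tested. Spacing went with a like rise in both classes. At 100 kb or more from the next H3K4me3 peak, WT-higher peaks of replicate 2 met 16.4% of far and 16.5% of other peaks. Under 2 kb they met 3.17% and 3.12%. Distance to the other marks and spacing were not told apart.

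Applied to the other lists, the rule gave sets that differed in how well they were shared. Of the 4580 far peaks of KO replicate 1, 95.4% were listed in KO replicate 2, 45.7% in WT replicate 1 and 74.5% in WT replicate 2. Of the 8197 of KO replicate 2, 49.9% were listed in KO replicate 1, 24.3% in WT replicate 1 and 53.7% in WT replicate 2. Of the 2283 of WT replicate 1, 93.6% and 98.9% were listed in KO replicates 1 and 2 and 99.2% in WT replicate 2. Far peaks of the shortest list were nearly all found in every other list, and those of the longest list were found least.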

How the data were processed

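Formaldehyde-fixed cells gave sonicated nuclear lysates from which antibodies isolated histone-bound DNA, made into Illumina libraries, per the labels' protocols. Per the submitters' processing notes, Bowtie 0.12.7, MACS (no version stated) and mm9 were used. The authors deposited, for each library, 1 peak list referenced to whole-cell extract and another of differences. Peaks have a score from the authors; how it was calculated is not given in the sources. From these, the 12 lists against extract and the 4 H3K4me3 difference lists were used.

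A far peak had more than 10 kb, edge to edge, to every peak of the 8 other lists. A peak was listed elsewhere with an overlap of at least 1 bp. What the difference lists were called against is not stated: 74.6% to 97.8% of difference peaks had the coordinates of a peak of the same library's list, and lists of opposite genotype and the same number shared 1 peak each, so each was read as the library against the other genotype. The distance code was tested on simulated intervals. Listing was compared over libraries with exact sign permutation, and shares per list with an exact two-sided permutation test. Alternatives changed the distance, score, overlap, chromosomes and lists used, and weighted the comparison peaks. Named regions were, per category (widest, most isolated, most remote, strongest without KO peak, highest-ranked difference calls in both replicates), the first 5. The peaks and tests were chosen with earlier results of these data known. Python 3.11.15, numpy 2.4.6, pandas 2.3.3, scipy 1.17.1 and bedtools 2.31.1 were used.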

Additional observations from a re-analysis of the deposited data

How the results depend on the processing

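No read counts or depths were used, so list length limits every listing. The number of far peaks was 3253 at a 20 kb distance, 7641 with H3K36me3 lists alone and 13278 with H3K27me3 lists alone. Listing in KO replicate 1, KO replicate 2 and WT replicate 1 was 68.2%, 91.5% and 45.9% at 5 kb, 60.6%, 88.9% and 35.6% at 20 kb, and 67.5%, 92.0% and 46.6% with scores of at least 160. With 50% of the peak covered it was 62.7% in KO replicate 1 and 33.9% in WT replicate 1. Leaving out each list of the other marks in turn, it ranged from 62.7% to 67.3%, 89.3% to 91.0% and 41.1% to 45.1%. Median width was 1522 bp at 5 kb, 1362 bp at 20 kb, 1700 bp with scores of at least 160 and 1443 to 1527 bp without single lists. KO-higher peaks in both replicates numbered 144 with scores of at least 160 in every list and 215 with difference peaks alone limited so. WT-higher peaks in both numbered 35 with 50% covered, 29 with difference peaks of at least 160, and 57 to 88 without single lists. The mean listing difference of far and other peaks turned positive when weighted to width quartiles (1.31), score classes (2.87) or both (3.19), the last 2 chosen after seeing the data. The mean WT-higher difference ranged from -1.52 to 0.505 percentage points without single lists, and was positive without the H3K27me3 list of WT replicate 2. The cause of these changes was not tested. Of 25 named regions, 4 changed their number of lists with scores of at least 160 and 4 with 50% covered. The replicate numbers share no stated origin. With a replicate block the KO minus WT share of far peaks was again 8.60 (exact p = 0.5, the smallest possible), and the covered length of replicate 1 minus replicate 2 correlated at 0.248 between genotypes over 24560 merged regions.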

Other observations

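Chromosome X lay outside the rule, and its peaks were examined apart. Of its 541 H3K4me3 peaks in WT replicate 2, 227 (42.0%) were far from the other marks, with a median width of 1743 bp. KO replicates 1 and 2 listed 134 (59.0%) and 201 (88.5%) of them, and WT replicate 1 listed 126 (55.5%). WT-higher difference peaks met 55 (24.2%) and 35 (15.4%) of the far X peaks in replicates 1 and 2, and KO-higher ones met 22 (9.69%) and 12 (5.29%). On chromosomes 1 to 19 the far peaks were instead met by KO-higher peaks more often, at 27.6% and 13.7%, than by WT-higher ones, at 5.69% and 8.27%. Over all chromosomes, the KO difference lists were the longer ones. Far X peaks WT-higher in both replicates numbered 11 (4.85%) and KO-higher in both 4 (1.76%). The other X peaks had similar shares, with 14 (4.46%) and 4 (1.27%). Among the 314 other X peaks, 40.8% and 8.92% were WT-higher and 4.14% and 2.23% KO-higher, so the WT lean on X was not limited to far peaks. No test was run on these counts.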
